A study of Mus musculus with 4 samples.

Results

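Regulatory T cells marked by Foxp3 were 666 of the 36286 liver immune cells kept, out of 39121 cells deposited. They were chosen by measured values: a kept cell had at least 1 UMI (unique molecular identifier, 1 counted transcript) of Cd3d, Cd3e or Cd3g, at least 1 UMI of Foxp3, and no UMI of Cd8a, Cd8b1 or Csf1r. Kept cells had 600 to 6000 genes detected and at most 5% mitochondrial UMIs. The genes of this choice are therefore given as a description only, and no test rests on them. Cells that met the same CD3, CD8 and Csf1r limits, held no Foxp3 UMI and held at least 1 Cd4 UMI were taken as conventional CD4 T cells for comparison, 2427 in all.

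The libraries are 10x 5′ single-cell RNA measurements of CD45+ cells from livers of female C57BL/6 mice, 1 library for each of 4 groups. The young WT mice were about 8 weeks old and untreated. The WT, miR-146a-/- and DKO (miR-146a-/- Ccl5-/-) mice were 36 weeks old by their labels. These 3 groups had received diethylnitrosamine (DEN, a liver carcinogen) at 25 mg/kg by injection on day 14, were weaned on day 21 and then ate a choline-deficient diet with 60% fat (CDHFD). The young WT library therefore differs from the WT library in age, DEN and diet at once, and these cannot be told apart. The number of mice behind a library is not stated. The matrices have no entry for the miR-146a gene, so these counts hold no value for it.

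In the order young WT, WT, miR-146a-/- and DKO, which is kept below wherever 4 values are given, there were 118, 58, 252 and 238 regulatory T cells. Their summed UMIs were 1229157, 560059, 2223804 and 1902635. The median regulatory T cell held 8186, 8155.5, 7422 and 6493.5 UMIs, and the median conventional CD4 T cell 7031, 7052.5, 6581.5 and 6745.5. The WT library thus gave the fewest regulatory T cells and the fewest summed UMIs of them. Intervals on shares and levels are exact 95% binomial and Poisson intervals and cover counting error only, since no group has a replicate. Of 38367 distinct cell barcodes, 745 occurred in 2 or more libraries. The barcodes of 34 regulatory T cells occurred in another library, and 0 were shared by regulatory T cells of 2 libraries.

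Foxp3 is the transcription factor that defines regulatory T cells, the CD4 lineage that restrains other lymphocytes. Regulatory T cells hold the interleukin 2 receptor and the checkpoint receptor CTLA-4 at their surface, and those settled in tissues also take on receptors for alarm signals and products that aid repair. In tumors and in chronically inflamed liver they are known for dampening T-cell responses. MicroRNA-146a, the microRNA deleted in the miR-146a-/- and DKO mice, is known to act in regulatory T cells and to bind transcripts of the signalling pathway upstream of NF-kB.

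The mature microRNA and its closest relative are shown because the deletion removes the former, and the labels name no change to the latter. Both sequences are those of RefSeq for GRCm38.p6, written 5′ to 3′, with the seed (bases 2 to 8) in capitals. They share the seed GAGAACU and have the same base at 20 of 22 positions.
mmu-miR-146a-5p: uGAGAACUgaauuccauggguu
mmu-miR-146b-5p: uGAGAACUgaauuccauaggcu
The former lies at chr11:43374435-43374456 on the minus strand and the latter at chr19:46342790-46342811 on the plus strand.

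Letters that pair with this seed, AGTTCTC, were searched on the transcript strand in the longest 3′ UTR of each protein-coding gene of GENCODE vM21 (GRCm38). They occurred in 2344 of 21014 such UTRs (11.2%), whose median length was 961 bases. The matches in the UTRs of 3 reported miR-146a targets, Irak1 and Irak2, kinases of the interleukin 1 and Toll-like receptor pathway, and of Traf6, the ubiquitin ligase below them, are shown with the match in capitals. A match is a description of these letters, not a site or a cause.
Irak1-a: agaggtcaaAGTTCTCatgcttgga
Irak1-b: atgcttggaAGTTCTCatagtgtgc
Irak2-a: aaacctcttAGTTCTCcacaacgga
Irak2-b: gtctccgcaAGTTCTCaagttcagg
Traf6-a: ctggtgttgAGTTCTCatttagttg
Traf6-b: gaaggcttaAGTTCTCaagtactcc
Traf6-c: ttggagtctAGTTCTCagggagccc
Traf6-d: tgctactgcAGTTCTCaaacatgga
The capital bases of Irak1-a and Irak1-b lie at chrX:74015394-74015400 and chrX:74015378-74015384 (minus strand), in a UTR of 1526 bases. Those of Irak2-a and Irak2-b lie at chr6:113694133-113694139 and chr6:113694266-113694272 (plus strand). Those of Traf6-a to Traf6-d lie at chr2:101697959-101697965, chr2:101698023-101698029, chr2:101698835-101698841 and chr2:101701359-101701365 (plus strand), in a UTR of 4170 bases. The longest UTRs of Relb and Cxcr4, also reported as targets, held 0 matches.

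Foxp3 transcripts were few per cell. The median regulatory T cell held 3, 3, 4 and 4 Foxp3 UMIs, and 32, 11, 36 and 46 cells entered with 1 UMI. Cells just inside this limit still differed from conventional cells in genes the choice did not use. Ikzf2, which encodes the transcription factor Helios, stood at 457, 373, 1210 and 830 CPM (a gene's UMIs per 1000000 UMIs summed over the cells of a class in a library) in cells with 1 Foxp3 UMI. It stood at 98.3, 125, 254 and 241 CPM in conventional CD4 T cells. Just outside the other limits, 53, 69, 94 and 85 CD3-positive cells with Foxp3 were left out for a UMI of Cd8a or Cd8b1, and 20, 18, 69 and 63 without a CD8 UMI for Csf1r. Those left out for exactly 1 CD8 UMI (16, 6, 23 and 20 cells with no Csf1r UMI) had Ikzf2 levels of 756, 728, 1264 and 1266 CPM, near those of the chosen cells. Those left out for 2 or more CD8 UMIs (32, 40, 40 and 37 cells) had lower levels, 619, 530, 613 and 764 CPM. Those with a Csf1r UMI had lower Ikzf2 levels, 300.4, 331, 536 and 497 CPM, in cells with a median of 19157.5, 16264.5, 19762 and 13317 UMIs.

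Foxp3 was also found in a small share of B cells, and how those UMIs arose was not tested. A Foxp3 UMI was present in 4 of 1096, 3 of 655, 4 of 448 and 5 of 681 B cells (0.365%, 0.458%, 0.893% and 0.734%), which had a median of 5697, 7033, 7183 and 6908 UMIs. Among CD3-positive cells without a CD8 or Csf1r UMI the share was 2.68%, 3.62%, 17.6% and 15.1%, at a median of 6646.5, 7028.5, 6993 and 7067 UMIs. The share in these T cells thus exceeded that in B cells in each of the 4 libraries at like depth. At the share of the B cells, 16.1, 7.34, 12.8 and 11.6 of these T cells would hold Foxp3, against the 118, 58, 252 and 238 that did, and at the upper limits of the B-cell shares 41.1, 21.3, 32.6 and 26.96 would. The part this could make up is thus largest in both WT libraries.

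Regulatory T cells made up a larger share of liver immune cells in the miR-146a-/- and DKO libraries than in both WT libraries. They were 1.15% (0.951% to 1.37%) of kept cells in the young WT library, 0.696% (0.529% to 0.899%) in the WT library, 3.22% (2.84% to 3.64%) in the miR-146a-/- library and 2.42% (2.12% to 2.74%) in the DKO library. The intervals of the 4 libraries did not overlap. The comparison of WT with young WT asks what age, DEN and diet change together, and its difference was -0.451 percentage points (Newcombe 95% interval -0.726 to -0.174). The comparison of miR-146a-/- with WT asks what the loss of miR-146a changes, and its difference was 2.52 points (2.10 to 2.97). The comparison of DKO with miR-146a-/- asks what the added loss of Ccl5 changes, and its difference was -0.805 points (-1.31 to -0.315). As a share of CD3-positive cells that difference was -0.387 points, with an interval that held 0 (-1.24 to 0.464). The WT and the miR-146a-/- libraries each stand in 2 of these comparisons. With no limit on Cd8a and Cd8b1, an alternative chosen after seeing the data, the shares of kept cells were 1.61%, 1.25%, 4.03% and 2.99%. The intervals of young WT (1.38% to 1.88%) and WT (1.02% to 1.51%) then overlapped, and miR-146a-/- exceeded WT by 2.78 points (2.29 to 3.28).

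Set against CD4 T cells alone, the order of the libraries was different. Regulatory T cells were 8.59% (7.17% to 10.2%) of regulatory plus conventional CD4 T cells in the young WT library and 15.7% (12.1% to 19.8%) in the WT library. The share was 33.3% (30.0% to 36.8%) in the miR-146a-/- library and 40.1% (36.1% to 44.1%) in the DKO library. The share thus stood higher in each library of this sequence, by 7.08 points (3.37 to 11.4), 17.7 points (12.4 to 22.5) and 6.73 points (1.56 to 11.9). Only conventional cells had to hold a Cd4 UMI here. With 1 required of both classes, the shares were lower, 6.20%, 10.3%, 26.6% and 31.3%. The interval of the last difference, DKO minus miR-146a-/-, held 0 with at least 2 Foxp3 UMIs required (5.04 points, -0.151 to 10.2), with a Cd4 UMI required (4.64, -0.513 to 9.83) and after thinning of cells to 2000 UMIs (4.24, -1.93 to 10.4). After thinning, the interval of WT minus young WT held 0 as well (2.35 points, -2.44 to 7.94). Many conventional cells of the young WT library carried a transcript of natural killer T or gamma-delta T cells. A UMI of Zbtb16, Klrb1c or Trdc was present in 713 of 1255 young WT conventional cells, against 64 of 312, 55 of 504 and 62 of 356 in the others. With such conventional cells left out, an alternative chosen after seeing the data, the shares were 17.9%, 19.0%, 35.9% and 44.7%, and WT exceeded young WT by 1.08 points (-3.99 to 6.57). The miR-146a-/- share exceeded that of WT by 17.0 points in that setting. With thinning added, the miR-146a-/- share exceeded that of WT by 22.2 points (15.5 to 28.2) and the DKO share that of miR-146a-/- by 4.82 points (-1.51 to 11.1). WT minus young WT was then -0.913 points (-6.36 to 5.23), the opposite direction with an interval that held 0.

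**Figure D1:**
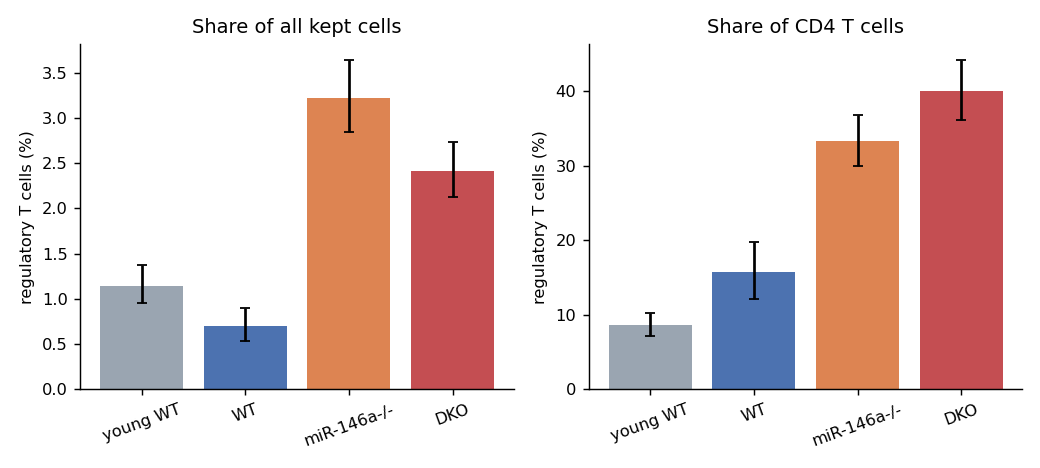
Regulatory T cells as a percentage of kept cells and of CD4 T cells (vertical axes) in the 4 libraries (horizontal axis), with exact 95% binomial intervals as error bars. The miR-146a-/- and DKO libraries stand above both WT libraries on both scales.

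Regulatory and conventional CD4 T cells of the same library were then compared across all genes, to ask which genes set the Foxp3-positive cells apart. The UMIs of each class were summed in each of the 4 libraries and tested with edgeR (quasi-likelihood, library as a block, adjusted p under 0.05 over 10260 genes). The 4 libraries are 4 different conditions, so the spread holds condition differences too. In regulatory T cells 697 genes were higher (6.79% of those tested) and 542 lower (5.28%). Without the DKO library the counts were 454 and 335, and without the miR-146a-/- library the lower count was 323.

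Of the 15 genes of a regulatory T-cell core list, 13 were tested (Foxp3, a gene of the choice, was not), 11 were higher and 1 was lower, with a median log2 difference of 1.83 against -0.01 over all genes tested. Helios (Ikzf2), which stabilizes the lineage, stood at 757 CPM (709.6 to 808) in young WT, 737 (668 to 812) in WT, 1339 (1291 to 1388) in miR-146a-/- and 1169 (1121 to 1219) in DKO regulatory T cells. It was higher than in conventional cells (log2 2.53, SE 0.11, adjusted p = 1.15e-06, higher in 4 of 4 libraries). The highest Ikzf2 level of conventional cells, 254 CPM, lay far under the lowest of regulatory T cells. Izumo1r, the folate receptor 4 gene, stood at 255, 232, 412 and 400.0 CPM in regulatory T cells and at 104, 134, 157 and 188 CPM in conventional cells. Its log2 difference was 1.15 (SE 0.09, adjusted p = 1.75e-05, 4 of 4 libraries). Both genes had their 2 highest levels in the libraries without miR-146a.

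The interleukin 2 receptor chain Il2ra, through which regulatory T cells take up that cytokine, stood at 120, 92.8, 147 and 106 CPM. Its log2 difference from conventional cells was 2.19 (SE 0.37, adjusted p = 0.0313, 4 of 4 libraries), and the call was lost without the WT library (log2 2.16) and without the DKO library (log2 2.18). The checkpoint receptor gene Ctla4 stood at 794, 857, 852 and 804 CPM, nearly level across the libraries. Conventional cells held 110, 237, 301 and 348 CPM of Ctla4, and the difference missed the threshold (log2 1.83, SE 0.35, adjusted p = 0.0689, higher in 4 of 4 libraries). It passed without the young WT library (log2 1.496). Other core genes higher in 4 of 4 libraries were Ikzf4, which encodes the Helios relative Eos (log2 3.45), Lrrc32, whose product GARP holds latent TGF-beta (log2 4.27), Nrp1, a semaphorin receptor (log2 1.85), and Capg, an actin-capping protein (log2 1.77). The ectonucleotidase gene Entpd1, which encodes CD39, was the core gene that was lower (log2 -0.62, adjusted p = 0.003, 4 of 4 libraries). Nt5e, which encodes CD73 and acts on the product of CD39, was higher (log2 1.29, adjusted p = 5.97e-05, 4 of 4 libraries).

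Foxp3 itself, used in the choice, stood at 416, 414, 592 and 568 CPM. Cd4 stood at 156, 175, 214 and 201 CPM in regulatory T cells, of which 83, 36, 183 and 162 had a Cd4 UMI. Conventional cells, where a Cd4 UMI was required, held 262, 307, 413 and 391 CPM. The 4 marker genes outside the choice, Ikzf2, Izumo1r, Tnfrsf4 and Ccr8, were each higher in regulatory than in conventional cells in all 4 libraries.

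Costimulatory receptors were among the gene groups most often higher in regulatory T cells, with 6 of 9 higher and 2 lower (median log2 0.91 against -0.01 over all genes tested). Tnfrsf4, which encodes OX40, stood at 281 CPM (252 to 312) in young WT, 491 (435 to 553) in WT, 878 (839.7 to 918) in miR-146a-/- and 764 (725 to 805) in DKO cells. Conventional cells held 46.1, 126, 197 and 220 CPM of it, a log2 difference of 2.11 (SE 0.12, adjusted p = 4.89e-06, 4 of 4 libraries). In both classes Tnfrsf4 was lowest in the young WT library. Tnfrsf9, which encodes 4-1BB and marks recent antigen contact, stood at 146, 293, 438 and 363 CPM against 33.9, 62.6, 50.5 and 46.8 CPM (log2 2.61, SE 0.18, adjusted p = 0.000235, 4 of 4 libraries). Tnfrsf18, which encodes GITR, stood at 267, 470, 590 and 595 CPM (log2 1.25, adjusted p = 0.00283, 4 of 4 libraries). Cd40lg, the ligand through which helper T cells activate B cells, was lower (log2 -2.06, adjusted p = 5.8e-05, 4 of 4 libraries), as was Cd28 (log2 -0.46, adjusted p = 0.00191, 4 of 4 libraries).

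**Figure D2:**
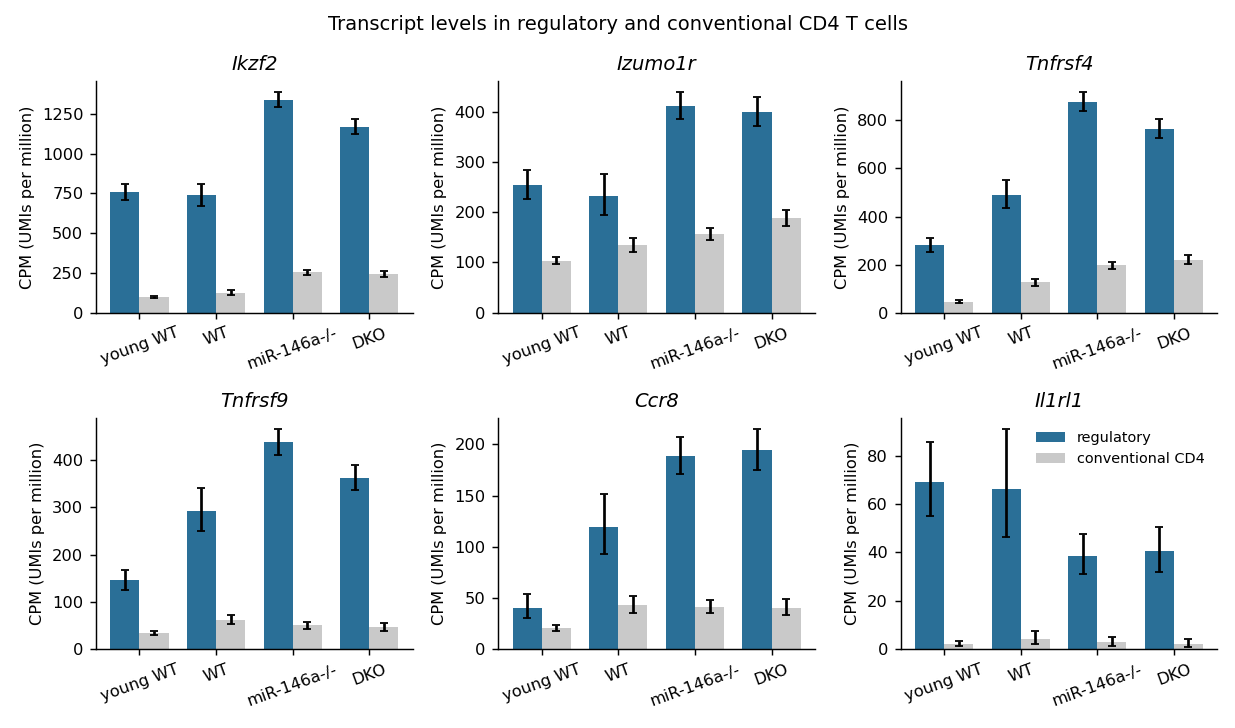
Levels in CPM (vertical axes) of 6 genes in regulatory and conventional CD4 T cells of the 4 libraries (horizontal axes), with exact 95% Poisson intervals as error bars. Each of the 6 genes was higher in regulatory T cells in all 4 libraries.

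Of 12 suppressive products tested out of 13 listed, 4 were higher and 2 lower (median log2 0.58 against -0.01). Ebi3, a subunit of interleukin 35, was higher (log2 2.20, adjusted p = 6.43e-06, 4 of 4 libraries). Il10, the gene of an anti-inflammatory cytokine, was lower in regulatory than in conventional cells. It stood at 4.88, 0, 22.0 and 22.6 CPM in regulatory T cells, and the 0 UMIs in the WT library do not exclude a low level. Conventional cells held 4.64, 37.5, 114 and 131 CPM (log2 -2.43, SE 0.36, adjusted p = 0.00715, lower in 3 of 4 libraries). Tgfb1 was measured at 181, 168, 214 and 215 CPM and did not pass (log2 0.15, adjusted p = 0.31, higher in 4 of 4 libraries).

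Genes of tissue-resident and effector regulatory T cells were higher in 9 of 18 cases and lower in 1 (median log2 0.89 against -0.01). Il1rl1, which encodes the receptor of the alarm signal interleukin 33, stood at 69.2 CPM (55.2 to 85.5), 66.1 (46.5 to 91.1), 38.7 (30.9 to 47.8) and 40.5 (31.9 to 50.6). Conventional cells held at most 4.12 CPM of Il1rl1 (log2 4.32, SE 0.23, adjusted p = 1.35e-06, 4 of 4 libraries). Itgae, the CD103 integrin chain that binds E-cadherin, stood at 172, 111, 188 and 136 CPM against at most 12.0 CPM (log2 4.24, adjusted p = 3.79e-06, 4 of 4 libraries). Areg, the growth factor amphiregulin with a role in repair, stood at 145, 421, 167 and 189 CPM against at most 23.2 CPM (log2 3.42, SE 0.45, adjusted p = 0.0277, 4 of 4 libraries). Its call was lost without the young WT (log2 3.52), the miR-146a-/- (log2 3.64) or the DKO library (log2 3.55). Icos (log2 1.22), Rora (log2 1.05) and Gata3 (log2 0.71) were also higher in 4 of 4 libraries. Klrg1, a receptor of terminally differentiated cells, stood at 172, 71.4, 225 and 176 CPM and just missed the threshold (log2 2.60, adjusted p = 0.0591, higher in 4 of 4 libraries). Cxcr6 was the gene of this group that was lower, at 149, 46.4, 73.3 and 83.6 CPM against 615, 360, 404 and 310 CPM (log2 -2.28, adjusted p = 2.63e-05, 4 of 4 libraries).

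Receptors that guide migration differed in both directions, with 5 of 14 chemokine receptors higher and 3 lower, against 6.79% and 5.28% of all genes tested, and a median log2 near that of all genes (0.02 against -0.01). Ccr8, a chemokine receptor known on regulatory T cells of tumors, stood at 40.7 CPM (30.2 to 53.6), 120 (92.7 to 152), 188 (171 to 207) and 194 (175 to 215). Conventional cells held 20.6, 43.5, 41.7 and 40.6 CPM (log2 1.79, SE 0.21, adjusted p = 0.00227, 4 of 4 libraries). The young WT library was lowest in both classes. Ccr4 (log2 1.23, adjusted p = 0.00235) and Ccr3 (log2 4.77, adjusted p = 0.0286) were higher in 4 of 4 libraries, Ccr3 from levels of at most 35.0 CPM. Ccr7, which leads cells to lymph nodes, was lower (log2 -1.01, adjusted p = 0.00737, 4 of 4 libraries). Of 17 cytokine receptors 7 were higher and 1 lower (median log2 0.43 against -0.01), among the former the interleukin 1 decoy receptor Il1r2 (log2 2.32, adjusted p = 0.0184, 4 of 4 libraries). The Il1r2 call was lost without the young WT library (log2 2.38) and without the DKO library (log2 2.17).

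Cytokines of conventional helper cells were low in regulatory T cells, with 7 of 8 tested genes lower and 0 higher (median log2 -2.58 against -0.01), out of 11 listed. Ifng, the gene of interferon gamma, stood at 65.9, 23.2, 13.04 and 19.4 CPM against 245, 278, 164 and 169 CPM (log2 -2.90, SE 0.34, adjusted p = 0.0108, 4 of 4 libraries). Its call was lost without the WT library (log2 -2.79) and without the DKO library (log2 -2.85). Il2, which regulatory T cells take up and make little of, was lower as well (log2 -2.27, adjusted p = 0.000951, 4 of 4 libraries), as was Il4 (log2 -3.37, adjusted p = 1.39e-05, 4 of 4 libraries). Ccl5, the chemokine deleted in the DKO mice, was the tested gene of the 8 that did not pass (log2 -1.93, adjusted p = 0.326, lower in 4 of 4 libraries).

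Genes of resting and recirculating T cells were lower in 6 of 12 cases and higher in 2 (median log2 -0.71 against -0.01). The transcription factor gene Tcf7 (log2 -1.35), the survival gene Bcl2 (log2 -1.54) and the genome organizer Satb1 (log2 -1.14) were lower in 4 of 4 libraries. S1pr1, the receptor for exit from lymph nodes (log2 0.69), was higher in 4 of 4 libraries. NF-kB subunits and response genes were higher in 9 of 14 cases and lower in 0 (median log2 0.39 against -0.01). The NF-kB inhibitor Nfkbia stood at 901, 1373, 1008 and 965 CPM against 413, 626, 448 and 566 CPM (log2 1.04, SE 0.07, adjusted p = 8.06e-06, 4 of 4 libraries). Traf1 (log2 0.79) and Birc3 (log2 0.71), both part of signalling below TNF receptors, were higher in 4 of 4 libraries. Of 15 cell cycle genes 0 passed the threshold in edgeR (median log2 0.08 against -0.01), and of 8 tested T-cell identity genes 5 were lower (median log2 -0.44 against -0.01), among them the kinase gene Lck (log2 -0.51, adjusted p = 0.00104, 4 of 4 libraries).

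Among the genes with the largest differences were several outside these lists. Frmd5 (log2 4.42), a gene for a membrane-linked protein of the FERM family, stood at 39.1, 55.4, 165 and 108 CPM against at most 6.74 CPM, though 67.7% of its UMIs in WT regulatory T cells lay in 1 of 4 positive cells. Rln3, a relaxin family hormone gene, stood at 46.4, 85.7, 53.1 and 138 CPM against at most 5.75 CPM (log2 3.81, SE 0.30, adjusted p = 0.00023, 4 of 4 libraries). Cd81, a tetraspanin, stood at 90.3, 134, 265 and 296 CPM against at most 44.7 CPM (log2 2.29, adjusted p = 0.00467, 4 of 4 libraries). On the lower side were Spp1, which encodes osteopontin (log2 -4.36), and Themis, a gene of T-cell receptor signalling (log2 -2.22). The cytotoxic granule gene Nkg7 was lower too (log2 -2.22, adjusted p = 0.0318, 4 of 4 libraries), a call lost without the WT (log2 -2.23), miR-146a-/- (log2 -2.04) or DKO library (log2 -2.08).

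Some of these calls depended on how the classes were set or fitted. With conventional cells that held a Zbtb16, Klrb1c or Trdc UMI left out, the calls of Ccr8 (log2 1.55), Entpd1 (-0.51), Cxcr6 (-1.87), Cd81 (2.04), Rln3 (3.90), Areg (2.92), Il1r2 (1.92), Ifng (-2.78) and Nkg7 (-2.10) were lost, and Ctla4 passed (1.43). With the library block left out, the calls of Tnfrsf4 (log2 2.03), Ccr8 (1.94), Entpd1 (-0.57) and Spp1 (-4.66) were lost. Ctla4 passed without the block (1.72) and in DESeq2 (1.84). When cells of both classes that held another type's marker were left out, the calls of Rln3 (3.87) and Areg (3.84) were lost, and with at least 2 Foxp3 UMIs required that of Nkg7 (-2.58). With no filter on low counts the calls of Areg (3.38), Nkg7 (-2.25) and Il2ra (2.15) were lost. Each of these genes kept its direction in these settings, and Ikzf2 and Izumo1r passed in all of them.

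**Figure D3:**
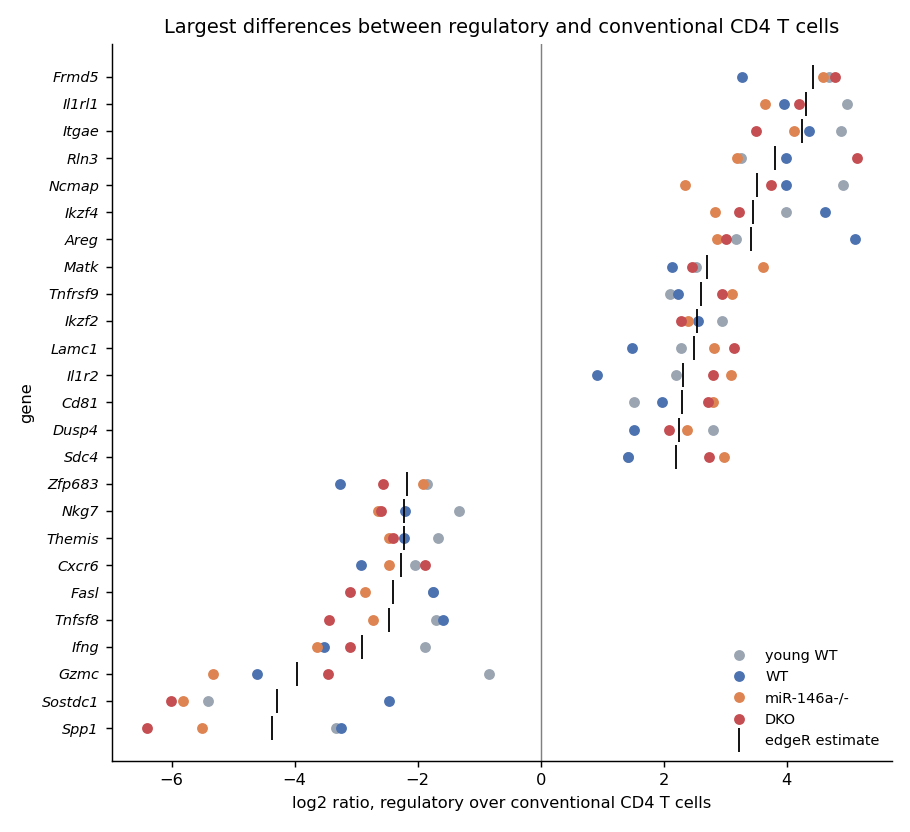
Log2 difference of regulatory over conventional CD4 T cells (horizontal axis) for the 15 higher and 10 lower genes of largest size (vertical axis), with 1 point per library and a tick for the edgeR estimate. The points of all 4 libraries lie on the same side of 0 for each of the 25 genes, which was a condition for naming them.

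Transcripts of other cell types were present in the chosen cells, and for the comparisons of libraries counts, and values of some genes, without the cells that held a marker are given below. At least 1 of 8 marker genes of other cell types was found in 40 of 118, 23 of 58, 89 of 252 and 91 of 238 regulatory T cells. Conventional CD4 T cells held such a marker in 300 of 1255, 154 of 312, 161 of 504 and 113 of 356 cells. The 6 B-cell genes, all 6 detected, summed to 947, 800.0, 1855 and 1449 CPM, with Ighm contributing the most UMIs in each library. A UMI of this B-cell list was found in 90.7%, 82.8%, 88.9% and 91.2% of regulatory T cells. Leaving out cells with 1 of the 8 markers thus does not remove all cells with such transcripts. In the test against conventional cells 4 of these 6 were higher in regulatory T cells and 0 lower. Of 3 plasma-cell genes, 2, 2, 3 and 3 were detected, summing to 141, 134, 1351 and 1768 CPM. The most abundant was Igkc in both WT libraries and Jchain in the miR-146a-/- and DKO libraries, where 77.0% and 51.2% of the list's UMIs lay in 1 cell. Of 5 neutrophil genes, 1, 1, 4 and 5 were detected, summing to 0.814, 1.79, 7.19 and 941 CPM, and 99.4% of the DKO value lay in 1 cell.

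Of 10 monocyte and macrophage genes, 7, 7, 8 and 9 were detected, summing to 105, 121, 105 and 245 CPM, with Lyz2 leading in 3 libraries and Cd68 in WT. Csf1r was 0 by the choice. The 3 natural killer T-cell genes summed to 107, 71.4, 39.1 and 34.2 CPM, led by Klrb1c. The 4 gamma-delta T-cell genes summed to 58.6, 25.0, 17.1 and 38.4 CPM, led by Tcrg-C4 in young WT and miR-146a-/- and by Trdc in the others. The 7 genes of natural killer cells and type 1 innate lymphoid cells summed to 503, 362, 385 and 331 CPM, led by Gzma outside WT, where Tmem176a led. Of 6 dendritic-cell genes 5, 5, 4 and 4 were detected, at 101, 53.6, 18.9 and 38.9 CPM in sum and led by Itgax. The 6 hepatocyte genes summed to 41.5, 58.9, 40.0 and 49.4 CPM, led by Trf. Endothelial and stellate genes reached at most 6.75 CPM and erythroid genes at most 3.15 CPM in sum, and Cd8a and Cd8b1 were 0 by the choice.

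Between WT and young WT, regulatory T cells of the treated older mice had higher levels of Areg, Ccr8, Tnfrsf9 and Tnfrsf4 and lower levels of Ifng, Gzmb and Klrg1. Areg was 2.91-fold higher in WT (log2 1.54, 95% Poisson interval 1.25 to 1.83), and 1.48 on the log2 scale without the highest cell. Ccr8 was 2.93-fold higher (log2 1.55, 1.01 to 2.11), Tnfrsf9 2.01-fold (log2 1.01, 0.69 to 1.32) and Tnfrsf4 1.75-fold (log2 0.81, 0.57 to 1.04). Ifng was 2.75-fold lower (log2 -1.46, -2.48 to -0.65) and Gzmb, the granzyme B gene, 2.65-fold lower (log2 -1.41, -1.77 to -1.07). Klrg1 was 2.38-fold lower in WT (log2 -1.25, -1.79 to -0.77), with 11 of 58 WT and 43 of 118 young WT cells positive. Without cells that held a marker of another cell type the log2 ratios were 2.28 for Areg, 1.83 for Ccr8, -2.37 for Ifng (3 against 45 UMIs, -4.91 to -0.94), -0.88 for Gzmb (-1.61 to -0.26) and -1.13 for Klrg1. Ctla4, near level with all cells (log2 0.11, -0.05 to 0.27), was higher in WT in that setting (0.40, 0.21 to 0.59). Conventional CD4 T cells had log2 ratios of 1.08 for Ccr8, 0.89 for Tnfrsf9 and 1.45 for Tnfrsf4, in the same direction, and of -0.41 for Areg, 0.18 for Ifng, 0.12 for Gzmb and 0.78 for Klrg1, in the opposite one.

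Past 2-fold, 74 genes were higher (1.92%) and 48 lower (1.25%) in WT among the 3852 genes that reached 50 CPM and 20 UMIs in either library. These counts are descriptions with no test. The T-cell help and homing genes Cd40lg (3.35-fold lower) and Cxcr6 (3.16-fold lower) and the Notch regulator Dtx1 (4.66-fold lower) were among the 10 genes with the largest ratios downward. Among the largest ratios upward were those of chemokine and antigen-presenting cell genes found in 3 to 6 of 58 WT cells. Cxcl9, an interferon-induced chemokine gene, had 0 UMIs in young WT and 29 in WT, at least 21.2-fold higher. Cxcl16 (134 against 2.44 CPM), Il4i1 (114 against 2.44 CPM) and H2-Eb2 (69.6 against 9.76 CPM) followed the same pattern. With the cells that held a marker of another cell type left out, Cxcl9, Cxcl16, Il4i1 and H2-Eb2 had 0, 0, 1 and 0 UMIs in WT and 0, 2, 2 and 1 in young WT, too few for a ratio. In the same setting the chemokine gene Cxcl2 was still higher in WT (log2 3.71, 2.30 to 5.84, on 23 against 4 UMIs), as was Fabp5, a fatty acid carrier gene (log2 0.96, 0.03 to 1.85), against 5.34 and 3.35 with all cells. Of the 74 higher genes, 15 had over 50% of their WT UMIs in 1 cell, and 56 remained past 2-fold with the highest cell left out. Fewer remained once the 23 WT and 40 young WT cells that held another type's marker were left out, 19 of the 74 higher and 28 of the 48 lower genes. In that setting 63 genes were higher and 109 lower among 3595, so the lower genes were then more numerous.

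By list, with Foxp3 left out as a gene of the choice, 1 of 11 tested core genes was past 2-fold higher (Ccr8; median log2 0.05 against -0.02 over all genes tested). Costimulatory receptors had 1 of 8 higher and 1 lower (median log2 0.03 against -0.02). NF-kB genes had 1 of 14 higher, Relb (52.9 against 130 CPM, 2.46-fold), with a median log2 of 0.43 against -0.02. The log2 ratio of Relb without cells that held another type's marker was 0.58 (-0.31 to 1.40). In that setting other NF-kB genes moved both ways. Tnfaip3 went from 0.35 to 0.17, Traf1 from 0.60 to 0.19 and Icam1 from -0.15 to -0.68. Nfkb2 went from 0.40 to 0.82 and Rel from 0.62 to 0.79. The core list without Foxp3 summed to 3462 CPM in young WT and 3909 CPM in WT, and the resting list to 2240 and 1802 CPM.

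Between miR-146a-/- and WT, regulatory T cells lacking miR-146a had higher levels of Ikzf2, Tnfrsf4, Izumo1r and Pdcd1 and lower levels of Ccr7, Tcf7 and Fos. Ikzf2 was 1.81-fold higher (log2 0.86, 0.71 to 1.01), Tnfrsf4 1.79-fold (log2 0.84, 0.66 to 1.03) and Izumo1r 1.77-fold (log2 0.82, 0.56 to 1.10). Pdcd1, which encodes the inhibitory receptor PD-1, was 2.29-fold higher (log2 1.19, 0.74 to 1.72), at 165 CPM (149 to 183) against 71.4 CPM (51.0 to 97.3). The homing receptor Ccr7 was 5.34-fold lower (log2 -2.42, -3.00 to -1.85) and the transcription factor gene Tcf7 2.30-fold lower (log2 -1.20, -1.68 to -0.71). The immediate early gene Fos was 4.48-fold lower (log2 -2.16, -2.37 to -1.96), at 764 CPM in WT and 170 CPM in miR-146a-/- cells. Other genes of these kinds did not follow. Ctla4 (log2 -0.01) and Icos (log2 -0.10) were near level and the immediate early gene Egr1 was higher (log2 0.74, 0.21 to 1.35). Without cells that held another type's marker the log2 ratio of Ccr7 was -1.02 on 12 against 5 UMIs (-2.55 to 0.92) and that of Tcf7 -0.71 (-1.45 to 0.12), both intervals that hold 0. The ratio of Ccr8 changed sign, from 0.65 (0.28 to 1.05) to -0.17 (-0.59 to 0.28), and Ctla4 was lower in miR-146a-/- cells (-0.39, -0.56 to -0.22). In that setting Ikzf2 stood at 0.76, Tnfrsf4 at 0.48 (0.26 to 0.71), Izumo1r at 1.17, Pdcd1 at 0.73 (0.18 to 1.38) and Fos at -2.65 on the log2 scale of the ratio. Conventional CD4 T cells changed in the same direction, with log2 ratios of 1.02 for Ikzf2, 0.65 for Tnfrsf4, 0.22 for Izumo1r, 1.06 for Pdcd1, -2.10 for Ccr7, -0.88 for Tcf7 and -2.56 for Fos. Differences between the classes in these ratios were not tested.

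Past 2-fold, 63 genes were higher (1.61%) and 94 lower (2.4%) among 3911. Penk, the proenkephalin gene, was 4.15-fold higher (log2 2.05, 1.60 to 2.57), at 292 against 69.6 CPM. Its WT value rested on 2 of 58 cells, and without the highest cell in each library the levels were 255 and 21.4 CPM. Klrg1 was 3.12-fold higher (log2 1.64, 1.19 to 2.16), and Tox2, a relative of the exhaustion factor gene Tox, 3.03-fold (log2 1.60, 0.74 to 2.76). Frmd5 was 2.94-fold higher (log2 1.55), and 2.95 on the log2 scale without the highest cell. The largest ratio was that of Jchain, the immunoglobulin joining chain, with 2373 UMIs against 1 (log2 8.64, 6.74 to 14.53), of which 97.3% lay in 1 miR-146a-/- cell, and without each library's highest cell it stood at 28.3 and 0 CPM.

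The chemokine and antigen-presenting cell genes that stood highest in WT had the largest ratios downward, such as Cxcl16 (66.6-fold lower) and Il4i1 (34.1-fold lower). The WT library is common to this comparison and the one with young WT, so its values enter both. Once cells that held another type's marker were left out, Mreg, Basp1 and Ccnd1 had 0 UMIs in WT and 3, 4 and 3 in miR-146a-/- cells, too few for a ratio, against 34, 64 and 45 UMIs in WT and 5, 17 and 13 in miR-146a-/- with them. With each gene's highest cell left out the median over all genes was 0.134 on the log2 scale against 0.034 with it, and 54 of the 63 higher and 68 of the 94 lower genes remained past 2-fold. With the cells that held another type's marker left out, 28 of the 63 higher and 18 of the 94 lower genes remained. Among the 3681 genes of that setting 95 were higher and 47 lower, so the higher genes were then more numerous.

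Of 12 tested core genes other than Foxp3 0 were past 2-fold, with a median log2 of 0.52 against 0.03 over all genes tested. The core list without Foxp3 summed to 3909 CPM in WT and 5685 CPM in miR-146a-/- cells. Of 16 immediate early and stress genes, 4 were past 2-fold lower and 0 higher (median log2 -0.69 against 0.03). Costimulatory receptors had 0 of 8 past 2-fold (median log2 0.50 against 0.03), and their sum was 2319 against 3103 CPM. Of 14 NF-kB genes 0 were past 2-fold, with a median log2 of -0.25 against 0.03, the opposite sign to WT over young WT, with which this comparison shares the WT library. Tnfaip3, an inhibitor of NF-kB signalling, stood at -0.77 (-0.96 to -0.57), Rel at -0.93 (-1.27 to -0.58) and Nfkbia at -0.45 (-0.56 to -0.33) on the log2 scale of the ratio. The members above 0 were Tnip1 (0.40), Bcl3 (0.32), Icam1 (0.30), Nfkb1 (0.22) and Rela (0.02), each with an interval that held 0. The genes whose seed matches are printed above were near level between these libraries. Irak1 stood at 71.4 CPM in WT and 66.6 in miR-146a-/- cells, Traf6 at 37.5 and 42.3 CPM and Irak2 at 60.7 and 67.0 CPM. The WT levels rested on 40 Irak1, 21 Traf6 and 34 Irak2 UMIs, too few to exclude modest differences either way. Traf6 lay under the limit of 50 CPM in both libraries. In the young WT and DKO libraries Irak1 stood at 45.6 and 65.2 CPM, Traf6 at 30.1 and 32.1 CPM and Irak2 at 78.9 and 60.97 CPM.

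Between DKO and miR-146a-/-, few genes passed 2-fold in regulatory T cells, and the largest ratio downward was that of the deleted gene. Ccl5, which encodes a chemokine of cytotoxic lymphocytes, stood at 1966 CPM (1889 to 2046) in young WT, 1243 (1152 to 1339) in WT, 1403 (1354 to 1453) in miR-146a-/- and 53.1 (43.2 to 64.5) in DKO regulatory T cells. It was 26.3-fold lower in DKO than in miR-146a-/- cells (log2 -4.72, -5.02 to -4.44), with 63 of 238 DKO cells holding a Ccl5 UMI. In conventional CD4 T cells Ccl5 stood at 3471, 5817, 22045 and 75.8 CPM, so regulatory T cells held less of it in each library. From WT to miR-146a-/- the level was 1243 against 1403 CPM in regulatory T cells and 5817 against 22045 CPM in conventional cells. For regulatory T cells this rise in Ccl5 was 0.17 in log2 units (0.06 to 0.30). Without the regulatory T cells holding another type's marker, the rise came to 0.78 (0.54 to 1.04), from 152 UMIs in WT and 1204 in miR-146a-/-. The difference between classes was not tested.

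Past 2-fold, 27 genes were higher (0.716%) and 21 lower (0.557%) among 3773. DKO and miR-146a-/- held 1902635 and 2223804 UMIs of regulatory T cells, against 560059 in WT. Counting error is thus smaller here, and these counts cannot be set against those of the comparisons with WT. Camk2b, a subunit of a calcium-dependent kinase, was 3.14-fold higher in DKO (log2 1.65, 1.40 to 1.91), at 250.2 CPM (228 to 274) against 79.6 (68.3 to 92.2). It was found in 151 of 238 DKO and 75 of 252 miR-146a-/- cells. The like ratio was found in conventional (log2 1.62) and CD8 T cells (log2 1.76). Rln3 was 2.60-fold higher (log2 1.38, 1.06 to 1.71), against a log2 ratio of -0.58 in conventional cells. Slfn8, a gene of the Schlafen family, and Dhx40, a helicase gene, were 2.46-fold and 2.42-fold lower, and Penk 1.97-fold lower (log2 -0.98, -1.19 to -0.78).

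The largest ratios upward were those of neutrophil granule genes and rested on 1 DKO cell. Camp had 0 UMIs in miR-146a-/- and 371 in DKO cells, all in 1 cell, which is 145-fold higher with miR-146a-/- set at 3 UMIs. S100a9 stood at 3.15 and 521 CPM, with 99.3% of the DKO UMIs in 1 cell, and its log2 ratio without each library's highest cell was 0.43. The chemokine gene Ccl1 had 97.8% of its DKO UMIs in 1 cell, and its log2 ratio was 2.92 with all cells and -0.43 without the highest. Of the 27 higher genes, 17 had over 50% of their UMIs in 1 cell and 12 remained past 2-fold without it, and of the 21 lower these were 12 and 13. Leaving out the cells that held another type's marker, 7 of the 27 higher and 5 of the 21 lower genes remained past 2-fold. Of 12 tested core genes other than Foxp3 0 were past 2-fold (median log2 -0.09 against -0.03 over all genes tested), and the core list without Foxp3 summed to 5230 CPM in DKO against 5685 CPM in miR-146a-/- cells.

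**Figure D4:**
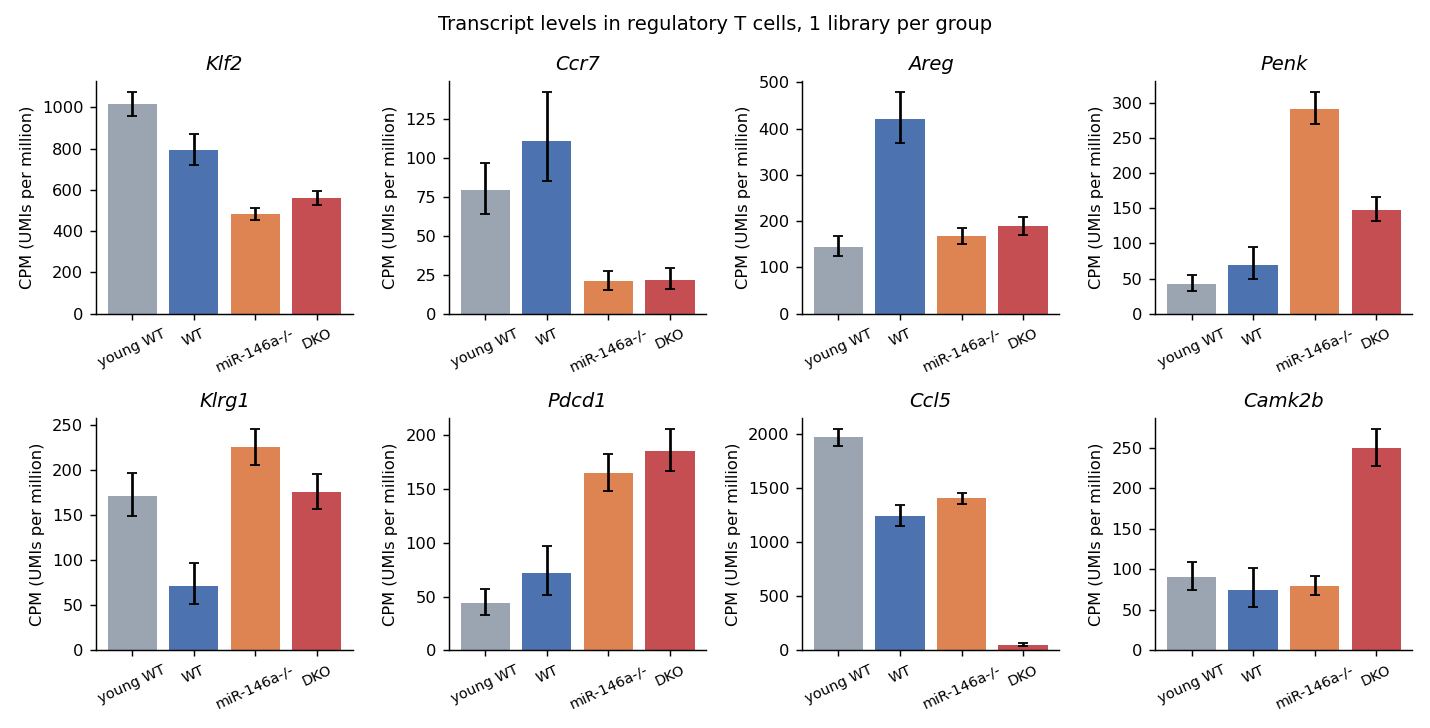
Levels in CPM (vertical axes) of 8 genes in regulatory T cells of the 4 libraries (horizontal axes), with exact 95% Poisson intervals as error bars. Ccl5 was lowest and Camk2b highest in the DKO library, and Klf2 was higher in both WT libraries than in the libraries without miR-146a.

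**Figure D5:**
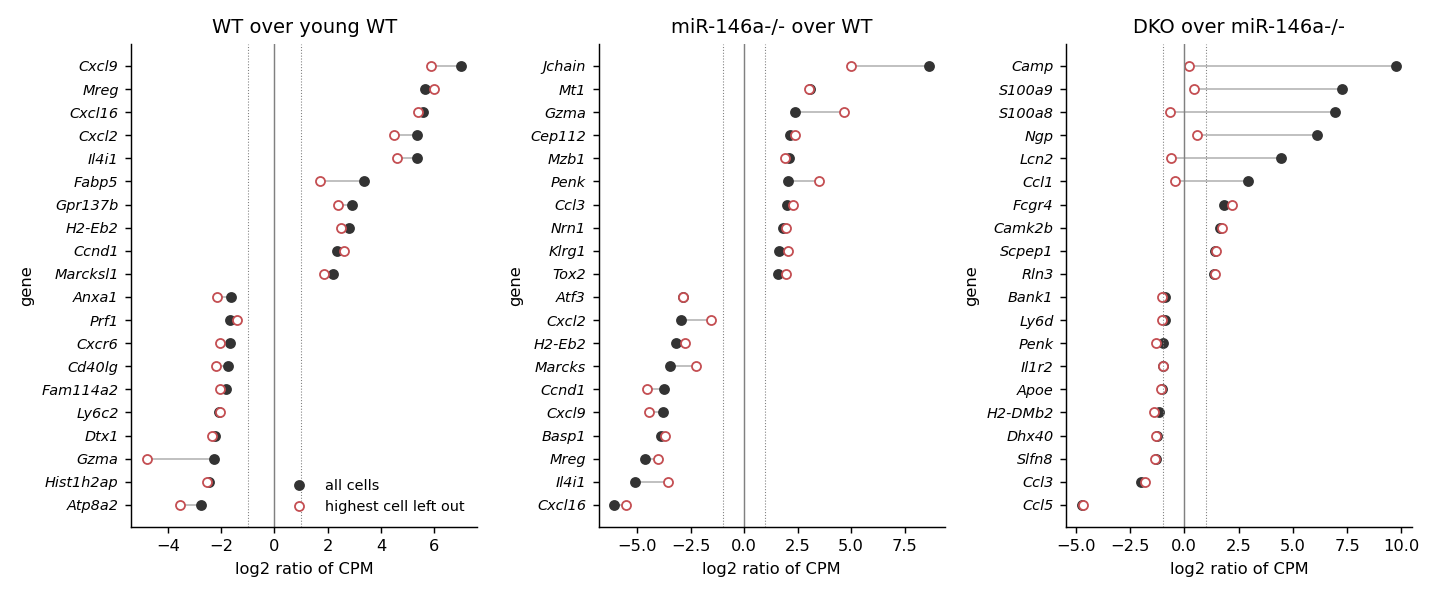
Log2 ratios of CPM in regulatory T cells (horizontal axes) for the 10 genes of largest ratio each way (vertical axes) in the 3 comparisons of libraries, with filled points for all cells, open points with each gene's highest cell left out, and dotted lines at 2-fold. In DKO over miR-146a-/- the open points of 6 genes, from Camp to Ccl1, lie within 2-fold while their filled points lie past it.

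Across the libraries the quiescence factor gene Klf2, known for keeping T cells in circulation, stood at 1016 CPM (961 to 1074), 795 (722 to 872), 481 (453 to 511) and 560 (527 to 594). Satb1 and Lef1, genes of naive T cells, stood at 108, 53.6, 35.5 and 30.0 CPM and at 137, 104, 72.8 and 94.6 CPM. The 12 resting genes summed to 2240, 1802, 1182 and 1340 CPM in regulatory T cells. In conventional cells this sum was 2781, 2393, 1279 and 1690 CPM, so the order of the libraries was the same in both classes. The 16 immediate early and stress genes summed to 10585, 11590, 7790 and 7573 CPM in regulatory and 12305, 9796, 5442 and 5433 CPM in conventional cells.

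How regulatory T cells of a library differed among themselves was read after random thinning of cells to 2000 UMIs apiece, which left out 3, 4, 13 and 10 shallower cells. Helios transcripts were found in most of them, with a share of 65.2% (55.8% to 73.9%), 74.1% (60.3% to 85.0%), 85.4% (80.2% to 89.6%) and 88.2% (83.2% to 92.0%), against 87.3%, 93.1%, 95.6% and 94.1% before thinning. In thinned B cells, taken as a comparison, the share with an Ikzf2 UMI was 0.923%, 0.62%, 1.34% and 0.889%. Tnfrsf9, the activation receptor, marked 16.5% (10.2% to 24.6%), 29.6% (17.98% to 43.6%), 39.3% (33.1% to 45.8%) and 37.7% (31.4% to 44.4%), against 39.8%, 60.3%, 61.9% and 61.8% before thinning. The interval of the young WT library lay under those of the miR-146a-/- and DKO libraries and overlapped that of the WT library.

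Pdcd1 marked 5.22% (1.94% to 11.01%), 12.96% (5.37% to 24.9%), 23.0% (17.8% to 28.9%) and 22.4% (17.1% to 28.3%) of thinned regulatory T cells, and 22, 17, 126 and 125 of all such cells held a UMI before thinning. Ccr7, the lymph node homing receptor, marked 10.4% (5.51% to 17.5%), 12.96% (5.37% to 24.9%), 2.51% (0.927% to 5.38%) and 0.877% (0.106% to 3.13%), and 16.1%, 17.2%, 9.13% and 5.46% before thinning. After thinning, cells with PD-1 transcripts were thus more frequent, and cells with Ccr7 transcripts less frequent, in the miR-146a-/- and DKO libraries than in the young WT library. Before thinning, the Ccr7 intervals of the young WT (9.98% to 24.0%) and miR-146a-/- libraries (5.87% to 13.4%) overlapped. Il1rl1 marked 15.7%, 12.96%, 7.53% and 8.77% and Klrg1 21.7%, 9.26%, 22.2% and 18.9%, against 30.5%, 34.5%, 16.7% and 14.7% and 36.4%, 19.0%, 34.1% and 30.3% before thinning. After thinning, the intervals of both genes overlapped between the WT and miR-146a-/- libraries. Before it, those of Il1rl1 did not (22.5% to 48.1% in WT and 12.3% to 21.9% in miR-146a-/-). In thinned B cells the share with a Tnfrsf9, Pdcd1 or Klrg1 UMI reached at most 1.19%, 0.446% and 0.369%, and 0 held Il1rl1, while Ccr7 marked 54.5%, 47.8%, 45.5% and 48.1% of them.

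Transcripts of helper lineages were shared out unevenly. Cxcr3, a receptor of type 1 responses, marked 33.9%, 35.2%, 38.9% and 40.8% of thinned regulatory T cells and 55.9%, 55.2%, 62.3% and 62.6% before thinning. Gata3, the transcription factor gene of type 2 cells and of many tissue regulatory T cells, marked 16.5%, 22.2%, 22.2% and 16.2%, against 56.8%, 67.2%, 56.7% and 48.7% before thinning. The proliferation gene Mki67 marked 15.7%, 12.96%, 8.79% and 11.4%, against 27.1%, 25.9%, 25.8% and 22.7% before thinning, with overlapping intervals in all 4 libraries.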

How the data were processed

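The authors deposited a matrix of UMI counts for each library, unnormalized. The headers and notes give Cell Ranger 7.0.1 and the mm10 reference. Rows with the same symbol were summed. Doublets were limited only by the limit of 6000 features, and no doublet caller was run. Levels are UMIs summed over a class in a library, in CPM. Ratios between libraries used a prior of 0.5 counts and genes that reached 50 CPM and 20 UMIs in either library. With 1 library per group they carry no test and no p-value. Shares of cells with a gene were read after thinning cells to 2000 UMIs apiece (random start 7).

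Regulatory and conventional CD4 T cells were compared with edgeR 4.0.16 (quasi-likelihood, Benjamini-Hochberg adjusted p) in R 4.3.3, with library as a block, leaving out the genes of the choice. DESeq2 1.42.0 was an alternative. The 8 markers of other cell types were Lyz2, C1qa, Cd79a, Ms4a1, Ncr1, S100a8, Siglech and Alb. Python 3.11.15 with numpy 2.4.6, pandas 2.3.3, SciPy 1.17.1 and matplotlib 3.10.9 did the rest. Medians of log2 differences over lists stand beside those over all genes tested.

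The genes named were those of the choice and its markers, the 15 largest rises and 10 largest falls of the class comparison (called, at least 50 CPM, the same direction in 4 of 4 libraries), the 10 largest ratios each way between libraries, and members of gene lists. Mitochondrial, ribosomal protein, antigen receptor, immunoglobulin and unnamed genes were left out of the ranked sets, but Jchain was kept in them. The members and lists were chosen with earlier results of these data known. Sequences came from RefSeq and GENCODE vM21.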

Additional observations from a re-analysis of the deposited data

Results flagged for a closer look

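For 3 genes the difference between regulatory and conventional CD4 T cells went one way in 1 library and the opposite way in another, each by 2-fold or more. Fabp5, a fatty acid carrier gene, had a log2 ratio of regulatory over conventional cells of 1.74 in WT and -1.15 in DKO, and 73.8% of its UMIs in WT regulatory T cells lay in 1 cell. The chemokine gene Ccl1 had a log2 ratio of 4.66 in DKO and -3.37 in miR-146a-/-, and 97.8% of its UMIs in DKO regulatory T cells lay in 1 cell. The immediate early gene Egr1 had a log2 ratio of 1.00 in miR-146a-/- and -1.12 in WT. With 1 library per group, these differences between libraries were not tested.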

How the results depend on the processing

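Of 51 values of shares under alternatives, 45 kept within the interval of the main value. The difference of miR-146a-/- and WT in the share of kept cells was 1.91 points with at least 1 Cd4 UMI required, 3.19 with no limit on Csf1r and 4.05 as a share of CD3-positive cells. WT minus young WT in the share of CD4 T cells was 2.35 points after thinning and 1.08 without conventional cells that held Zbtb16, Klrb1c or Trdc. It was -0.913 with both, the opposite direction. The last 2 settings, leaving out cells with another type's marker in the class comparison, dropping the CD8 limit and leaving out each gene's highest cell were chosen after seeing the data. The cause of these shifts was not tested.

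Of 48 counts past 2-fold, 33 stayed within 1.5 times the main count. With a prior of 5 counts, 28 genes were lower in WT than young WT and 40 higher in miR-146a-/- than WT. With at least 10 CPM, where more genes were tested, 308 were lower in WT than young WT, 452 higher and 174 lower in miR-146a-/- than WT, and 137 higher and 131 lower in DKO than miR-146a-/-. With a Cd4 UMI required, 76 were lower in WT than young WT. Without cells that held another type's marker, 109 were lower in WT than young WT, 95 higher and 47 lower in miR-146a-/- than WT, and 9 higher in DKO than miR-146a-/-. Without each gene's highest cell these were 76 lower in WT, 120 higher in miR-146a-/- and 17 higher in DKO.

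In the class comparison, leaving out the library block gave 447 higher and 236 lower genes, and thinning gave 395 and 330. DESeq2 gave 355 lower genes, and no filter on low counts 968. Leaving out 1 library at a time gave 454 to 688 higher and 323 to 540 lower genes. Of 391 values of single genes, 349 kept their side of the threshold, 38 lost and 4 gained the call, and 0 changed direction.

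Of 480 log2 ratios of single genes between libraries, 17 changed sign. In 7 of the 17 a library had 0 UMIs in that setting, so the size of the value depends on the prior of 0.5 counts (Cxcl16, H2-Eb2, Mreg, Basp1, Ly6d and both of Ccnd1). The counting interval lay past 0 in the new direction for Ccnd1 in WT over young WT (0 against 12 UMIs, upper limit -0.15) and Ccl1 in DKO over miR-146a-/- (-9.33 to -1.30), both without cells that held another type's marker, and held 0 in the other 15. Without cells that held another type's marker these were, for WT over young WT, Cxcl16 (-0.99), H2-Eb2 (-0.26), Ccnd1 (-3.31), Gzma (0.68) and Prf1 (0.26), for miR-146a-/- over WT Mreg (0.61), Basp1 (0.97) and Ccnd1 (0.61), and for DKO over miR-146a-/- S100a9 (-0.35), Ngp (-1.29), Ccl1 (-3.40) and Ly6d (2.62). For DKO over miR-146a-/-, S100a8 (-0.86) and Lcn2 (-0.20) changed sign with at least 2 Foxp3 UMIs, and S100a8 (-0.67), Lcn2 (-0.62) and Ccl1 (-0.43) without the highest cell. The cause was not tested. With 58 cells, depth limits the WT library most.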

Other observations

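Antigen receptor segments were measured in most regulatory T cells, with a UMI of at least 1 Trbv segment in 112 of 118, 53 of 58, 227 of 252 and 222 of 238 cells of the young WT, WT, miR-146a-/- and DKO libraries. The cells were spread over 22, 19, 23 and 24 segments. The most frequent, Trbv13-2, was found in 36.6% (27.7% to 46.2%) of young WT cells with a segment, 24.5% (13.8% to 38.3%) in WT, 29.1% (23.3% to 35.4%) in miR-146a-/- and 26.6% (20.9% to 32.9%) in DKO. Conventional CD4 T cells had it in 51.1%, 35.9%, 30.8% and 27.9%. Trbv12-2 was found in 16.1%, 7.55%, 10.1% and 9.91% of regulatory T cells, and Trbv3 in 9.82%, 11.3%, 8.37% and 12.6%. A UMI of a segment can come from free RNA, and no clones were called.

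In thinned regulatory T cells of the 4 libraries together, Ccr8 was found in 31.2% of 215 cells with a Tnfrsf9 UMI and in 9.26% of the others. Il1rl1 was found in 24.6% of 126 cells with a Klrg1 UMI and in 6.27% of the others. In each of the 4 libraries both shares were higher in the cells with the other transcript, though in WT only 1 of 5 cells with Klrg1 held Il1rl1. The cells of a library are not replicates, and this was not tested.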
